A study of Mus musculus with 4 samples.

Results

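The insulin, FOXO and mTOR genes are 10 genes chosen by name that span the nutrient-sensing pathway from the cell surface to its kinases: the receptors Insr and Igf1r, the adaptors Irs1 and Irs2, the PI3K subunit Pik3r1, the kinase Akt1, the transcription factors Foxo1 and Foxo3, and the kinases Mtor and Prkaa1. All 10 were found among the 25261 gene identifiers of the files, by symbol in GENCODE M21. RNA sequencing gave their transcript levels in adult neural stem cells of the mouse, from which neurons and glia of the adult brain arise. In the shOGT group (2 libraries) the cells had been infected with a lentivirus carrying a short hairpin RNA against mouse Ogt. In the ctrl group (2 libraries) the lentivirus carried a scramble hairpin. Both groups came from C57BL/6 mice aged 8 weeks, and total RNA was extracted with TRIzol. Whether libraries of the same group are separate cultures is not given in the labels, so the p-values reflect the spread between these 4 samples alone, and that spread may be technical. These are bulk data, in which fewer cells of a type and less RNA per cell cannot be told apart.

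Insulin and the insulin-like growth factors bind receptor tyrosine kinases, which phosphorylate IRS adaptors. These recruit PI3-kinase, whose lipid product activates AKT. AKT phosphorylates FOXO transcription factors, which then leave the nucleus, and relieves the brake that the TSC complex puts on mTOR complex 1 (mTORC1). AMPK, activated when cellular energy is low, acts against mTORC1. In the adult brain FOXO3 is known for keeping neural stem cells from exhausting their pool, and insulin-like growth factor signalling for promoting their division. Ogt encodes O-GlcNAc transferase, whose sugar donor is made from glucose, glutamine and other nutrients.

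Transcripts of Pik3r1 and Irs1 were lower and those of Mtor higher in shOGT than in ctrl, while the other 7 members did not pass the test. Pik3r1 averaged 4181 ± 215 in shOGT and 5512 ± 11.6 in ctrl. Irs1 averaged 591 ± 21.1 in shOGT and 738 ± 32.3 in ctrl. Mtor averaged 1934 ± 52.0 in shOGT and 1624 ± 40.3 in ctrl (SD, n = 2 each). Values are the deposited signal, which behaves like reads per gene divided by a factor for each library. Fold changes are shOGT minus ctrl on the log2(signal + 1) scale, and a gene was called at a limma p under 0.05 after Benjamini-Hochberg adjustment over all 21829 genes tested.

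Between 15697508 and 17753976 reads per library were implied by the values, with 22607 to 22931 genes detected. Mitochondrial genes accounted for 3.58% and 3.63% of the signal in shOGT, against 3.45% and 3.39% in ctrl. Ogt itself was 3379 and 3516 in shOGT, against 4112 and 4138 in ctrl. It fell by 16.4% and was called lower (log2 fold change -0.26 ± 0.04 SE, limma adjusted p = 0.00876). All 8 neural stem cell markers were present, and their summed signal was 122622 and 127689 in shOGT, against 131487 and 135114 in ctrl. Fabp7 was called lower, at 20416.5 and 22434 in shOGT, against 29543 and 30451 in ctrl. Sox2, Slc1a3 and Hes5 were also below ctrl in both shOGT libraries without being called. Vim, at 32758 and 33435 in shOGT and 30676 and 31422 in ctrl, and Msi1 were above ctrl in both, also uncalled. Nes and Sox9 overlapped between the groups. The 6 neuron markers summed to 17871 and 17658 in shOGT, against 15760 and 16292 in ctrl, with Map2 called higher. Map2 alone, at 17564 and 17269 in shOGT and 15469 and 15954 in ctrl, made up nearly all of that sum. Rbfox3 and Snap25 also lay above ctrl in both shOGT libraries without being called. Tubb3 and Syt1 overlapped between the groups, with higher means in shOGT, and were not called. Dcx, a marker of young neurons, was 19.1 and 29.2 in shOGT, against 40.9 and 66.5 in ctrl, and was not called (log2 fold change -1.11, limma adjusted p = 0.0894). The 4 astrocyte markers summed to 12430 and 12734 in shOGT, against 14199 and 13878 in ctrl, with Aldh1l1 and Gja1 called lower. Aqp4 was below ctrl in both shOGT libraries without being called, and S100b overlapped between the groups. The 7 oligodendrocyte lineage markers summed to between 21862 and 22727 in all 4 libraries, a sum carried by Olig2, at 20158 and 19687 in shOGT and 19015 and 19105 in ctrl. Pdgfra was called lower, at 132 and 137 in shOGT, against 287 and 303 in ctrl. Cspg4, Sox10, Mbp and Mog were also below ctrl in both shOGT libraries without being called, Mbp at 18.1 and 15.1 in shOGT and 32.9 and 27.8 in ctrl, and Mog, too low to be tested, at 0 in both shOGT libraries. Microglia markers (4 of 5 analysed) stayed between 6.94 and 10.4 and endothelial markers (2 of 4 analysed) reached at most 27.6, with no marker at 0 in every library. The neural stem cell, neuron and astrocyte sums did not overlap between the groups. Within each of these lists, however, the markers did not all move the same way. The part of other cell types in the results below was not tested.

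The promoters of the called members and of Irs2, the paralogue of Irs1, are shown so that the letters before the changed genes can be read beside those of the Irs1 paralogue. In mouse liver the Irs2 promoter is known to be bound by FOXO factors at an insulin response element and by TFE3 at an E-box. Each runs from 250 bases before to 50 bases after a RefSeq start site on GRCm38.p6, 5′ to 3′ along the gene. Capitals mark 4 motifs sought on both strands after the sequences had been seen: the E-box CACGTG, the core of the insulin response element TGTTTTG, the FOXO element TGTTTAC, and the CCAAT box, which reads ATTGG where it lies on the opposite strand. Irs1 (chr1:82291390-82291689, minus strand), Irs2 (chr8:11008880-11009179, minus strand), Pik3r1 (chr13:101768168-101768467, minus strand) and Mtor (chr4:148448332-148448631, plus strand) read as follows.
Irs1: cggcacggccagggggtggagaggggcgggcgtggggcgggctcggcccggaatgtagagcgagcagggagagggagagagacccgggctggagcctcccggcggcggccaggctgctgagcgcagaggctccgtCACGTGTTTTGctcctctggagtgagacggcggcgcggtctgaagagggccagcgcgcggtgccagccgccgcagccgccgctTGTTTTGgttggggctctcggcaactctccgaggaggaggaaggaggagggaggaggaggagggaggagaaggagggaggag
Irs2: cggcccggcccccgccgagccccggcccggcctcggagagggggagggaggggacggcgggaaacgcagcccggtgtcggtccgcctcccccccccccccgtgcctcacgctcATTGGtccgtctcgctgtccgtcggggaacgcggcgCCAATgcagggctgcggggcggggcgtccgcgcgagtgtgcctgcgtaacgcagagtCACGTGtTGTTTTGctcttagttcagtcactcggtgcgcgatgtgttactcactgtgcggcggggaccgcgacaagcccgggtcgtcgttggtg
Pik3r1: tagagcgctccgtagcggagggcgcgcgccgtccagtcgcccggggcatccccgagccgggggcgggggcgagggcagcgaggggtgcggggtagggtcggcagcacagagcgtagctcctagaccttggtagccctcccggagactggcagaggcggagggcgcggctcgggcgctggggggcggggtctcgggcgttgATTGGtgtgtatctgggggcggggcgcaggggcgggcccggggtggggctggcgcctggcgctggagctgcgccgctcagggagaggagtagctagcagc
Mtor: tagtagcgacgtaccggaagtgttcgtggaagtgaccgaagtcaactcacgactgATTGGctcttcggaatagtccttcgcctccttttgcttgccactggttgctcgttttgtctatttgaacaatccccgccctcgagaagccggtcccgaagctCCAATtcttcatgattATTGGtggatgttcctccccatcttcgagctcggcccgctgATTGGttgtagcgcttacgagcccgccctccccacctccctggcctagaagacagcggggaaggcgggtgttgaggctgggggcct
The RefSeq start sites of Irs1, Irs2 and Mtor are not the same bases as the GENCODE gene starts given below.

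Both Irs promoters held an E-box beside the insulin response element core, in the stretch gtCACGTGTTTTGctcctct of Irs1 and gtCACGTGtTGTTTTGctct of Irs2. In Irs1 the E-box began at -115 from the start site and the core shared its last 2 bases. A second core of Irs1 began at -32. In Irs2 the E-box began at -44 and the core followed 1 base after its end. The E-box occurs in 7.15% and the core in 6.28% of all 32851 promoters of the RefSeq table. How often the 2 lie side by side was not counted, and these separate shares do not give it. The Mtor promoter held 4 CCAAT boxes, at -195, -93, -77 and -36, the Foxo1 promoter 3, the Irs2 promoter 2 and the first Pik3r1 promoter 1. At least 1 CCAAT box is found in 37.4% of all promoters. How many promoters hold 4 was not counted. The FOXO element, present in 3.65% of promoters, occurred once among the members, in the first Akt1 promoter at -161. In all, 11 promoters of 9 members were searched. A match is a description of letters and not a binding site.

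**Figure D1:**
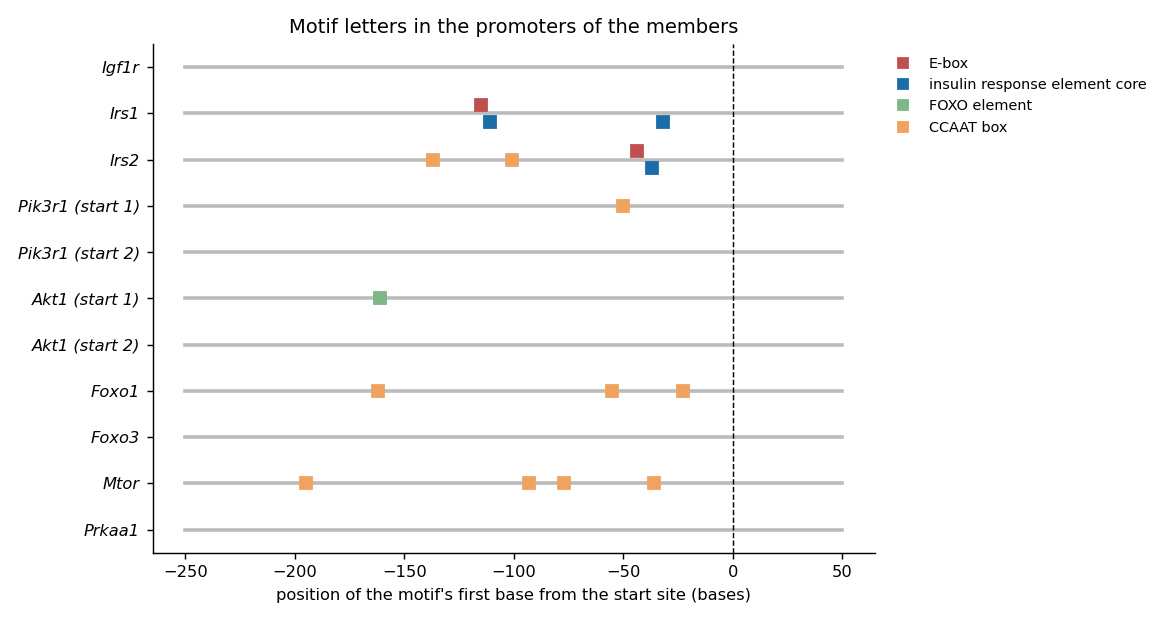
Positions of the 4 motifs in the 11 promoters of 9 members, with the first base of each match in bases from the RefSeq start site (dashed line at 0) on the x axis and 1 grey line per promoter. The E-box (red) and the insulin response element core (blue) lie side by side in Irs1 and Irs2, and Mtor holds 4 CCAAT boxes (orange).

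Of the 10 members, 3 were called, 1 higher and 2 lower, which is 30% of them. The members were chosen with earlier results of these data known, so this share is a description. Over all 21829 genes tested 4.86% were called, 1.96% higher and 2.9% lower. Higher genes made up 40.3% of all calls, or 50.3% with libraries rescaled to equal totals. All members had a mean signal above 100, and among the 11080 genes with a mean of at least 100 the share called was 9.21%. The groups did not overlap in 7 members, 5 of them with shOGT above ctrl and 2 with shOGT below, nor in 49.3% of all genes tested. The members' median log2 fold change was 0.11, beside 0.0012 for all genes tested, with 7 positive and 3 negative values. The size of the 3 called changes exceeded the median absolute log2 fold change of genes with a mean of at least 100, which was 0.10. Being called already selects for large changes, so this comparison adds no support. No member had fewer than 282 implied reads in any library. Transcripts alone were measured, and protein levels or phosphorylation were not.

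The 3 calls were kept with a pseudocount of 0.5 or 5, with libraries rescaled to equal totals and with a minimum mean of 10. They were lost, with no gene of the whole table called by limma, without the low-value filter (4302 genes at an unadjusted p under 0.05), after quantile normalization (3998) and without the variance trend (2763). They were also lost when any 1 of the 4 libraries was left out, although the direction of each of the 3 stayed the same.

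**Figure D2:**
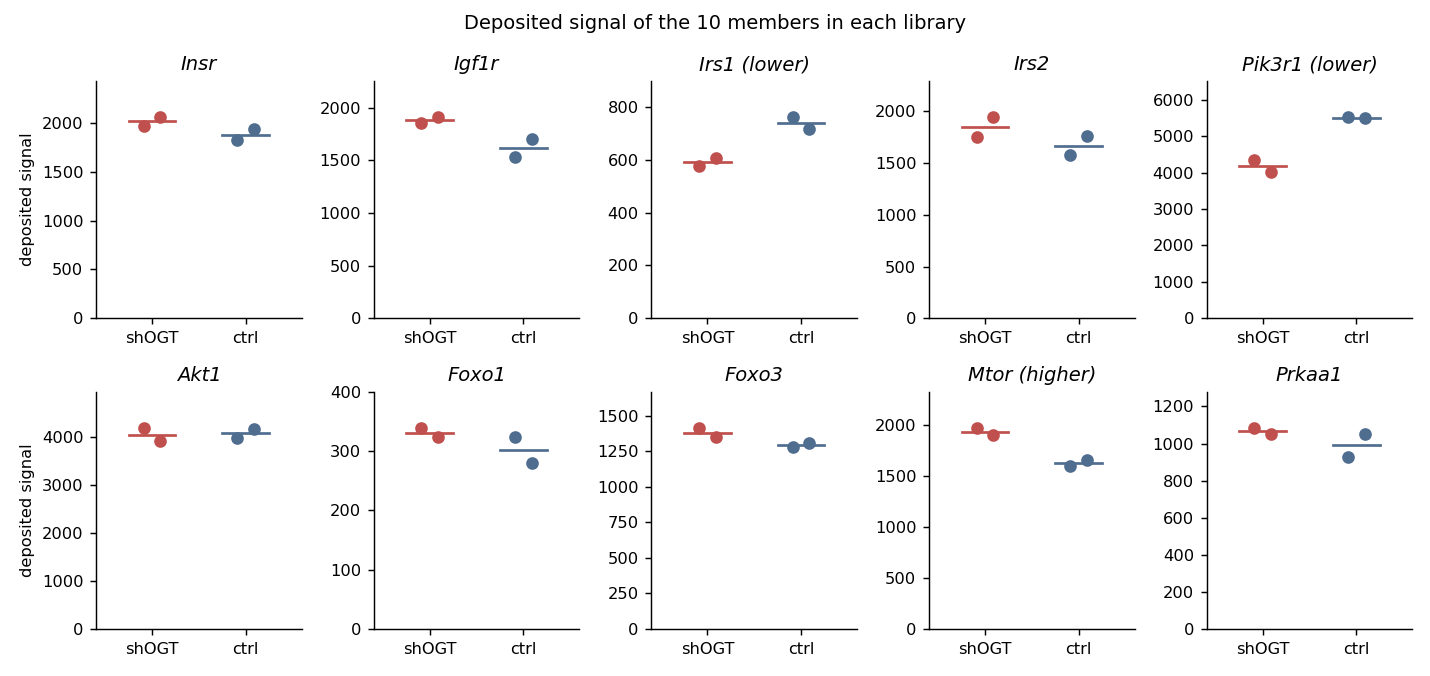
Deposited signal (y axis, from 0, a separate scale for each gene) of the 10 members in each library, shOGT in red to the left and ctrl in blue to the right, with points for libraries and bars for group means (n = 2). The groups stand apart most clearly for Pik3r1, Irs1 and Mtor, with both shOGT points below both ctrl points for Pik3r1 and Irs1 and above them for Mtor.

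Among the receptors, Igf1r and Insr had higher shOGT than ctrl values in every library, and neither passed the test. Igf1r (ENSMUSG00000005533, chromosome 7, 67952827 to 68233668, plus strand), the receptor for insulin-like growth factor 1, was 1856 and 1908 in shOGT, against 1527 and 1697 in ctrl. The groups did not overlap, but the ctrl values lay further apart than the shOGT values. The log2 fold change was 0.23 (95% interval 0.09 to 0.36), with an unadjusted p of 0.00356 and an adjusted p of 0.0610 in limma. Igf1r was called with a pseudocount of 5 (adjusted p = 0.0467), with equal library totals (0.0382) and with a minimum mean of 10 (0.0123). Insr (ENSMUSG00000005534, chromosome 8, 3122061 to 3279617, minus strand), the insulin receptor, was 1973 and 2059 in shOGT, against 1824 and 1935 in ctrl. Its groups came close without overlapping, at a log2 fold change of 0.10 (95% interval -0.01 to 0.21, adjusted p = 0.313).

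Per kilobase of exon, a scale on which genes can be compared, Insr was the more abundant receptor in all libraries. Igf1r made up 43.5% and 43.1% of the summed signal of both receptors in shOGT, against 40.7% and 41.8% in ctrl. These shares did not overlap. The smallest p that an exact permutation test of 2 against 2 libraries can give is 0.333, so the shares reported here are given as values, without a test.

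The adaptors Irs1 and Irs2 dock onto the activated receptors and carry the phosphotyrosines that PI3-kinase binds. Irs1 (ENSMUSG00000055980, chromosome 1, 82233101 to 82291416, minus strand) was 576 and 606 in shOGT, against 761 and 715 in ctrl. Both shOGT values lay below both ctrl values, and the distance between the groups was larger than that within either. Irs1 fell by 19.9%, at a log2 fold change of -0.32 ± 0.07 SE (95% interval -0.47 to -0.17, limma adjusted p = 0.0301). Leaving out 1 library at a time gave -0.36 to -0.27, with adjusted p between 0.297 and 0.385. Exons of Irs1 overlap those of Gm9747 on the other strand, which is not analysed here, and the labels do not say whether counting used strand.

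Irs2 (ENSMUSG00000038894, chromosome 8, 10984681 to 11008458, minus strand) was 1748 and 1944 in shOGT, against 1574 and 1766 in ctrl. The groups overlapped, since the first shOGT library lay below the second ctrl library. Its log2 fold change was 0.14 (95% interval -0.01 to 0.30, adjusted p = 0.291). Its exons overlap those of 9530052E02Rik, whose values were 5.32 and 1.89 in shOGT and 3.99 and 2.98 in ctrl.

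Irs1 made up 18.6% and 17.7% of the summed Irs1 and Irs2 signal per kilobase in shOGT, against 25.1% and 21.9% in ctrl, a mean difference of -5.32 percentage points. Irs2 was the larger part in every library, at 81.4% and 82.3% in shOGT and 74.9% and 78.1% in ctrl. The summed signal of both per kilobase was 339 and 374 in shOGT and 332 and 357 in ctrl, which overlap. Irs4, a further paralogue, was 0 in both shOGT libraries and 0.997 and 1.98 in ctrl, too low to be tested.

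Pik3r1 had the smallest adjusted p of the members. It encodes the regulatory subunit of class IA PI3-kinase that binds IRS phosphotyrosines and both stabilizes and restrains the catalytic subunit. Pik3r1 (ENSMUSG00000041417, chromosome 13, 101680563 to 101768217, minus strand) was 4333 and 4029 in shOGT, against 5520 and 5503 in ctrl. The ctrl libraries were nearly equal, and both shOGT libraries lay far below them. Pik3r1 fell by 24.1%, at a log2 fold change of -0.40 ± 0.04 SE (95% interval -0.50 to -0.30, limma adjusted p = 0.00196). Without any 1 library the log2 fold change was -0.45 to -0.35, with adjusted p between 0.286 and 0.315.

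Of the other regulatory subunits, Pik3r3 was called and Pik3r2 was not, and the difference between them was not tested. Pik3r3 fell to 1547 and 1511 in shOGT, against 1821 and 1888 in ctrl (log2 fold change -0.28 ± 0.05, limma adjusted p = 0.0136). Pik3r2 was 2353 and 2171 in shOGT and 2204 and 2163 in ctrl, at a log2 fold change of 0.05 (95% interval -0.06 to 0.16, adjusted p = 0.651). Exons of Pik3r3 and Pik3r2 overlap those of Gm49337 and 6330537M06Rik. Pik3r1 made up 33.4% and 33.2% of the regulatory signal per kilobase in shOGT, against 38.6% and 38.4% in ctrl, and Pik3r2 43.8% and 43.2% in shOGT, against 37.2% and 36.5% in ctrl. The largest share was thus that of Pik3r2 in both shOGT libraries and that of Pik3r1 in both ctrl libraries. With the length of the longest transcript in place of all exons, a choice made after the data were seen, the share of Pik3r1 was 37.0% and 36.8% in shOGT, against 42.7% and 42.6% in ctrl, and Pik3r2 led in shOGT as before.

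Summed per kilobase, the 3 regulatory subunits reached 1285 and 1205 in shOGT, against 1419 and 1420 in ctrl. The 3 catalytic subunits Pik3ca, Pik3cb and Pik3cd summed to 197 and 218 in shOGT, against 193 and 199 in ctrl. The ratio of regulatory to catalytic signal was 6.52 and 5.52 in shOGT, against 7.35 and 7.14 in ctrl. Regulatory sums and ratios were lower in both shOGT libraries, whereas the catalytic sums overlapped. Pik3r1 and Pik3r3, both called lower, are part of the regulatory sum. The shares, sums and ratios thus restate those calls in part and are not separate support.

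**Figure D3:**
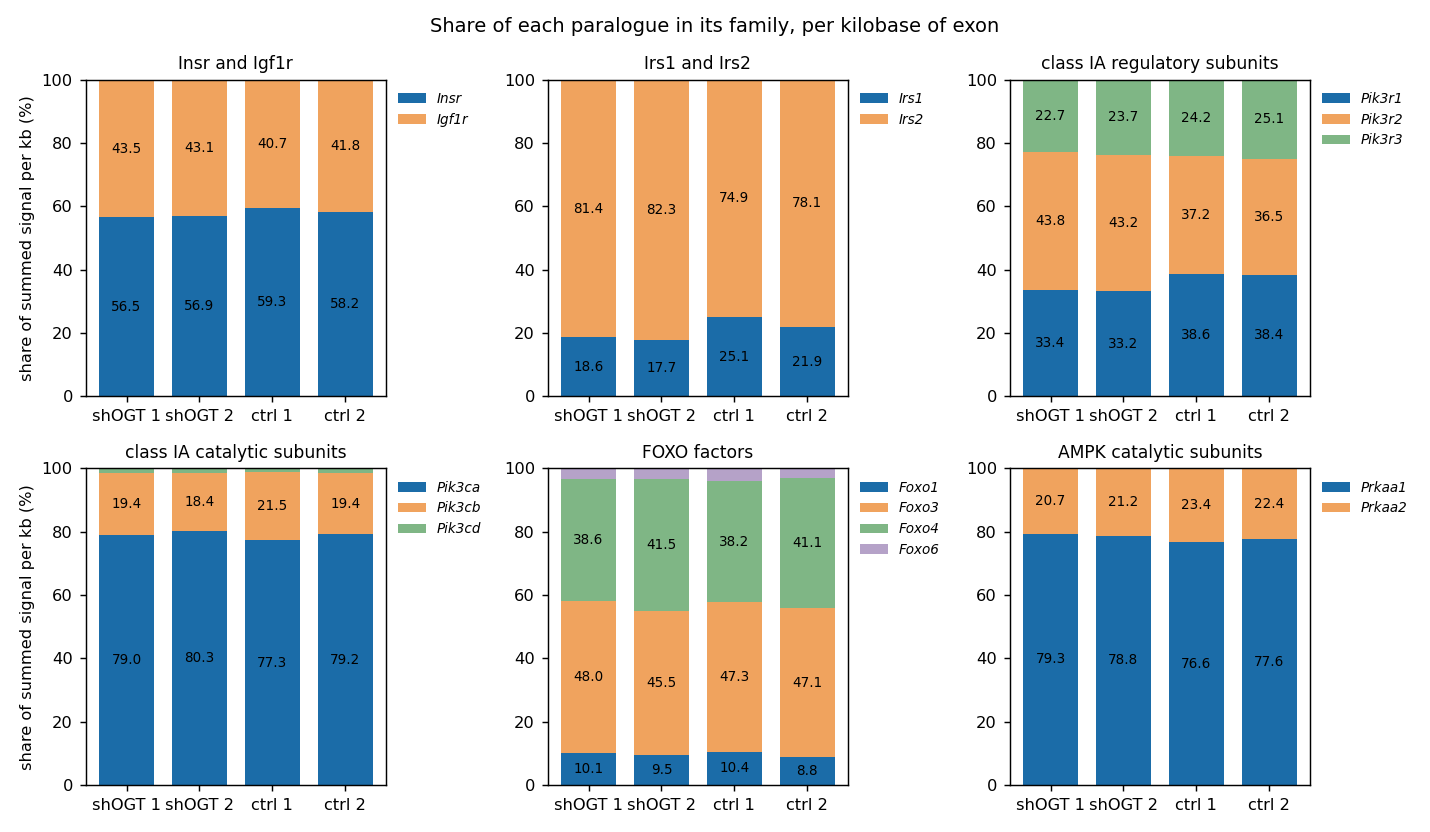
Share of each paralogue in the summed signal per kilobase of its family (y axis, percent, from 0 to 100), with 1 bar per library and the shOGT libraries to the left of the ctrl libraries. Irs1 takes 18.6% and 17.7% in shOGT against 25.1% and 21.9% in ctrl, and Pik3r2 takes the place of Pik3r1 as the largest regulatory subunit in shOGT.

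Akt1, the kinase that conveys the PI3-kinase signal, showed no detectable difference. Akt1 (ENSMUSG00000001729, chromosome 12, 112653821 to 112674884, minus strand) was 4180 and 3902 in shOGT, against 3969 and 4168 in ctrl. The 2 groups spanned nearly the same range. Its log2 fold change was -0.01 (95% interval -0.12 to 0.09, adjusted p = 0.938), with a positive sign at equal library totals and after quantile normalization. Akt2 was 3082 and 3315 in shOGT and 3107 and 3173 in ctrl (log2 fold change 0.03, adjusted p = 0.825).

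The FOXO factors were not called. Foxo3 (ENSMUSG00000048756, chromosome 10, 42181841 to 42276755, minus strand), the member best known in adult neural stem cells, was 1415 and 1348 in shOGT, against 1283 and 1309 in ctrl. The groups did not overlap but lay close, at a log2 fold change of 0.09 (95% interval -0.03 to 0.21, adjusted p = 0.387). Foxo1 (ENSMUSG00000044167, chromosome 3, 52268336 to 52353221, plus strand), which drives fasting genes in the liver, was 339 and 323 in shOGT, against 324 and 280 in ctrl. Its groups met at nearly the same value, and the log2 fold change was 0.14 (95% interval -0.09 to 0.36, adjusted p = 0.502). Exons of Foxo1 overlap those of Gm20402, which is not analysed here.

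Foxo4 was 523 and 566 in shOGT and 477 and 526 in ctrl (adjusted p = 0.465). Foxo6 was 34.0 and 34.9 in shOGT and 37.9 and 29.8 in ctrl (adjusted p = 0.964). Per kilobase, Foxo3 made up 48.0% and 45.5% of the FOXO signal in shOGT and 47.3% and 47.1% in ctrl, and Foxo1 10.1% and 9.54% in shOGT and 10.4% and 8.79% in ctrl. The shares of both overlapped between the groups.

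Mtor was the member called higher. It encodes the kinase at the centre of both mTOR complexes, which promote protein synthesis and growth when nutrients are at hand. Mtor (ENSMUSG00000028991, chromosome 4, 148448611 to 148557683, plus strand) was 1971 and 1898 in shOGT, against 1596 and 1653 in ctrl. Both shOGT values lay well above both ctrl values. Mtor rose by 19.1%, at a log2 fold change of 0.25 ± 0.05 SE (95% interval 0.14 to 0.36, limma adjusted p = 0.0206). Without any 1 library the log2 fold change was 0.22 to 0.28, with adjusted p between 0.297 and 0.369.

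Prkaa1 (ENSMUSG00000050697, chromosome 15, 5143861 to 5181899, plus strand), a catalytic subunit of AMPK, was 1084 and 1054 in shOGT, against 928 and 1051 in ctrl. The lower shOGT value and the higher ctrl value were nearly the same. Its log2 fold change was 0.11 (95% interval -0.04 to 0.27, adjusted p = 0.411). Prkaa2, the other catalytic subunit, was 484 and 486 in shOGT and 485 and 520 in ctrl (log2 fold change -0.05, 95% interval -0.21 to 0.12, adjusted p = 0.781). Prkaa1 held 79.3% and 78.8% of their signal per kilobase in shOGT, against 76.6% and 77.6% in ctrl.

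**Figure D4:**
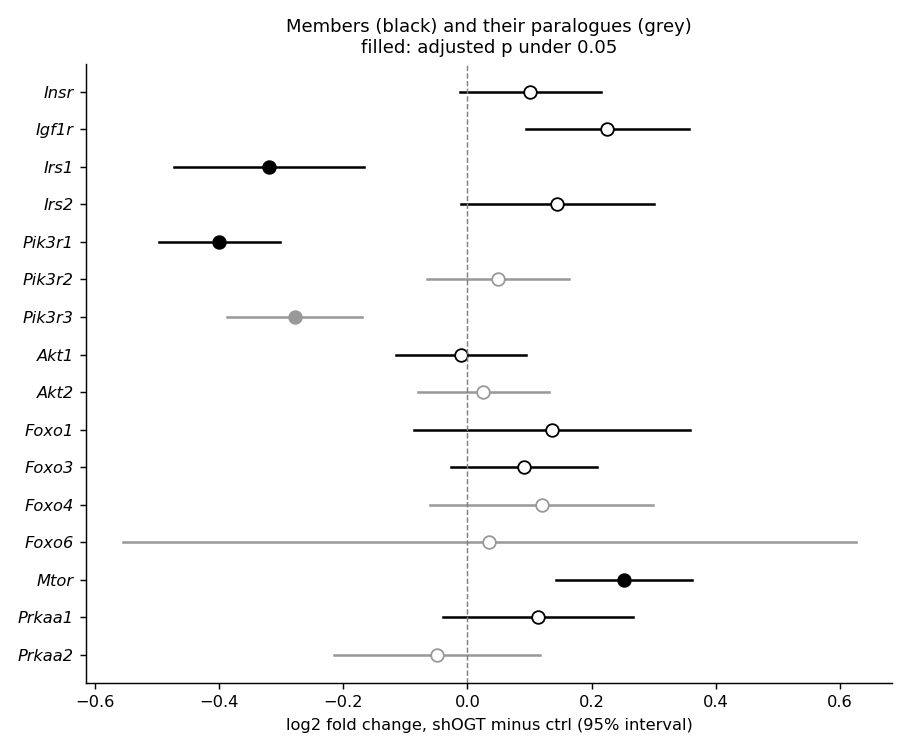
Log2 fold change, shOGT minus ctrl, of the members (black) and their paralogues (grey), with 95% intervals from limma as lines. Filled points, adjusted p under 0.05, are those of Irs1, Pik3r1 and Pik3r3 below 0 and Mtor above 0, and the interval of Foxo6 is the widest.

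Ordered by mean signal per kilobase over the 4 libraries, the members spanned a wide range. Akt1 came first at 989, above 96.3% of the genes tested, followed by Pik3r1 at 481, Irs2 at 278 and Prkaa1 at 221. Foxo3 at 177 and Mtor at 176 were next, then Insr at 142, Igf1r at 104 and Irs1 at 72.7. Foxo1 came last at 36.5, above 49.8% of the genes tested. The order was the same in both groups except for Mtor and Foxo3. It rests on the length of the merged exons, and other lengths were not tried for it. Mtor was 195 and 188 per kilobase and Foxo3 187 and 178 in shOGT, whereas Mtor was 158 and 163 and Foxo3 170 and 173 in ctrl. Neighbours in this order did not overlap within either group, although the lower Mtor value and the higher Foxo3 value in shOGT were nearly equal.

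Beyond the members, 141 further genes of the pathway were grouped into 8 lists by role, of which 138 were found and 135 tested. Of these 5 were called higher and 7 lower, together 8.89%, beside 4.86% of all genes tested and 9.21% of those with a mean of at least 100. Their median log2 fold change was 0.0080. Leaving out any 1 library raised the adjusted p of each of the 12 called genes to between 0.286 and 0.403, with the sign of each unchanged. These lists were drawn up with results of these data known, so their counts are descriptions.

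Among 9 tested ligands and binding proteins none was called higher and 1 lower (median -0.14). Igfbp2, which binds insulin-like growth factors outside the cell and is abundant in these libraries, fell to 34450 and 34634 in shOGT, against 38394 and 37862 in ctrl (log2 fold change -0.14 ± 0.03, limma adjusted p = 0.0221). Igf2r, which clears insulin-like growth factor 2, was 1121 and 1274 in shOGT and 1364 and 1467 in ctrl (adjusted p = 0.0849). Igfbp4 was 6871 and 7197 in shOGT and 7466 and 7592 in ctrl (adjusted p = 0.185). Values of Ins1, Ins2 and Igfbp1 are not analysed here, and Insrr was too low to be tested.

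Among 12 tested adaptors and brakes 1 was called higher and none lower (median -0.02). Gab1, a docking protein that also recruits PI3-kinase, rose to 1663 and 1627 in shOGT, against 1387 and 1448 in ctrl (log2 fold change 0.21 ± 0.05, limma adjusted p = 0.0425). Its exons overlap those of Gm31105. Gab2 was 840 and 907 in shOGT and 906 and 966 in ctrl (adjusted p = 0.453). Ptpn1, a phosphatase that switches off the insulin receptor, was 2203 and 2162 in shOGT and 2225 and 2335 in ctrl (adjusted p = 0.511).

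Among 20 other PI3-kinase and AKT genes 1 was called higher and 1 lower (median 0.04), the called lower gene being Pik3r3, given above. Tbc1d1, an AKT and AMPK substrate that controls glucose transporter traffic, rose to 1794 and 1801 in shOGT, against 1477 and 1567 in ctrl (log2 fold change 0.24 ± 0.05, limma adjusted p = 0.0288). Phlpp2, a phosphatase that removes an activating phosphate from AKT, was 606 and 557 in shOGT and 684 and 779 in ctrl (log2 fold change -0.33, 95% interval -0.51 to -0.15, adjusted p = 0.0513).

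Among 20 further FOXO factors and targets 2 were called higher and 1 lower (median -0.04), so that the called targets did not share a direction. Fbxo32, a ubiquitin ligase induced by FOXO in wasting muscle, rose to 203 and 175 in shOGT, against 117 and 128 in ctrl (log2 fold change 0.62 ± 0.13, limma adjusted p = 0.0304). Cat, the catalase that breaks down hydrogen peroxide, rose to 2029 and 1984 in shOGT, against 1758 and 1708 in ctrl (0.21 ± 0.05, adjusted p = 0.0340). Txnip, an inhibitor of thioredoxin and of glucose uptake, fell to 350 and 343 in shOGT, against 513 and 448 in ctrl (-0.47 ± 0.09, adjusted p = 0.0183). Exons of Txnip overlap those of Gm15441 and exons of Fbxo32 those of Gm15943.

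Among 17 genes of the mTOR complexes and their TSC brake 1 was called higher and 1 lower (median 0.11). Both encode stress-induced inhibitors of mTORC1. Ddit4l rose to 1360 and 1271 in shOGT, against 974 and 987 in ctrl (log2 fold change 0.42 ± 0.06, limma adjusted p = 0.0046). Ddit4 fell to 2116 and 2069 in shOGT, against 2859 and 2515 in ctrl (-0.36 ± 0.06, adjusted p = 0.0122). Rptor, the defining subunit of mTORC1, was 2055 and 2143 in shOGT and 1885 and 1781 in ctrl, groups that did not overlap (log2 fold change 0.20, 95% interval 0.08 to 0.31, adjusted p = 0.0583). Exons of Rptor overlap those of Rptoros.

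Among 15 mTORC1 outputs 1 was called lower and none higher (median 0.07). Eif4ebp1, the repressor of cap-dependent translation that mTORC1 switches off, fell to 329 and 297 in shOGT, against 502 and 450 in ctrl, the largest size of log2 fold change but Fbxo32 among the called genes of the pathway (-0.60 ± 0.09, limma adjusted p = 0.0079). Lpin1, a phosphatidate phosphatase, was 2382 and 2187 in shOGT and 2056 and 1886 in ctrl (adjusted p = 0.0768). Pdcd4, an inhibitor of translation initiation, was 1077 and 1149 in shOGT and 970 and 976 in ctrl (adjusted p = 0.0969).

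Among 28 amino acid sensing genes 2 were called lower and none higher (median -0.02). Both belong to the platform that brings mTORC1 to the lysosome. Rraga, a Rag GTPase, fell to 1336 and 1314 in shOGT, against 1581 and 1556 in ctrl (log2 fold change -0.24 ± 0.05, limma adjusted p = 0.0240). Lamtor1, which anchors the Ragulator complex, fell to 1443 and 1373 in shOGT, against 1635 and 1673 in ctrl (-0.23 ± 0.05, adjusted p = 0.0331). Exons of Lamtor1 overlap those of Lrrc51. Rragd was 529 and 465 in shOGT and 598 and 595 in ctrl (adjusted p = 0.0991).

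None of the 14 tested genes of AMPK and its kinases was called by limma (median -0.06), with 2 at an unadjusted p under 0.05. These were Camkk2, a kinase that activates AMPK in response to calcium, and Cab39, a partner of the kinase LKB1. Camkk2 was 3479 and 3684 in shOGT and 3121 and 3305 in ctrl (log2 fold change 0.16, adjusted p = 0.0998). Cab39 was 2632 and 2768 in shOGT and 2873 and 2953 in ctrl (-0.11, adjusted p = 0.215). Acaca, the acetyl-CoA carboxylase that AMPK inhibits, was 2054 and 2026 in shOGT and 2131 and 2241 in ctrl (adjusted p = 0.282). Prkag3 was too low to be tested.

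**Figure D5:**
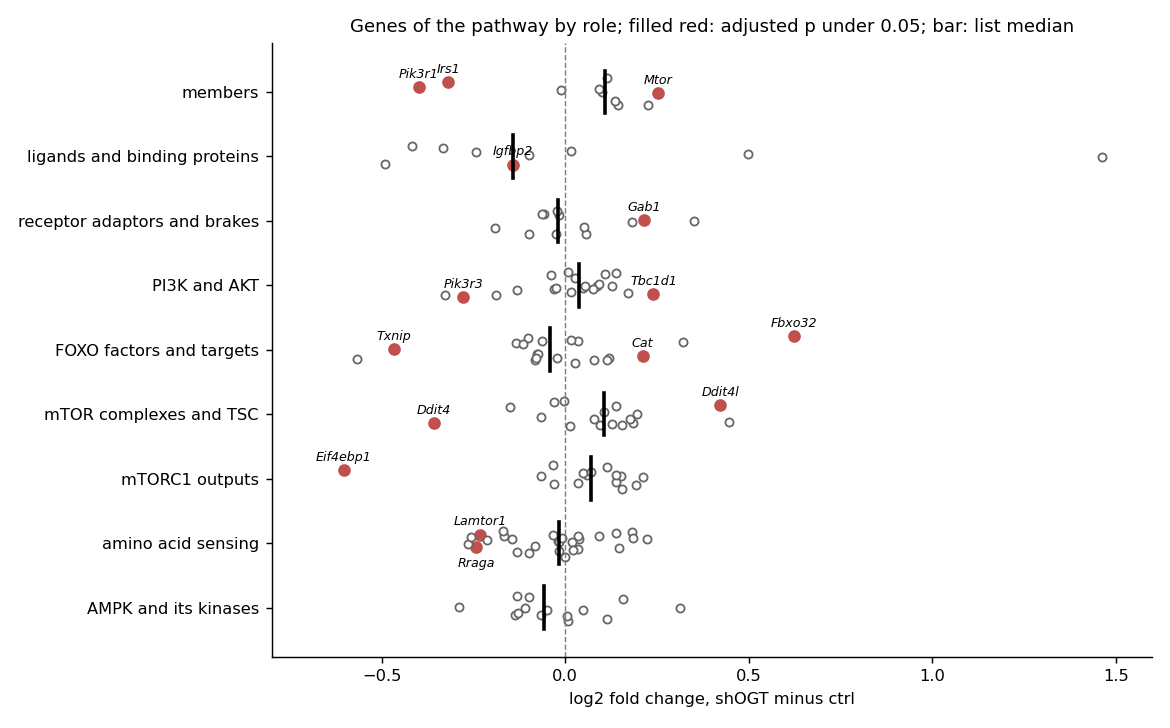
Log2 fold change, shOGT minus ctrl (x axis), of the 10 members and of the 135 tested genes of the 8 role lists, with 1 point per gene, called genes filled in red and named, and black bars at the list medians. The called genes of the FOXO and mTOR lists lie on both sides of 0, and the point farthest to the right, at 1.46, is Igf2, whose values were 4.25 and 1.89 in shOGT and 0.997 and 0 in ctrl.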

How the data were processed

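RNA sequencing values of 4 libraries were used, 2 per group, with groups and replicate numbers taken from the sample titles. The members and gene lists were chosen with earlier results of these data known. The deposited files hold 1 signal value per gene and library; the authors' aligner, counter, annotation, strand setting and normalization were not given in the sources used here, and the submitters' processing notes name the build mm10. In each library 100% of the values were whole multiples, within 0.01, of a step (1.06 and 0.943 in shOGT, 0.997 and 0.992 in ctrl), from which implied reads were computed. Identifiers were matched to GENCODE M21 on GRCm38 (25250 of 25261). Exon length is that of the merged exons of all transcripts.

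A gene was tested where 2 or more libraries had a value of 1 or more. Testing was done with limma 3.58.1 in R 4.3.3 on log2(signal + 1), with a variance trend over all genes, 2-sided, and Benjamini-Hochberg adjustment. Each SE, interval and p-value uses a spread that limma draws in part from the other genes, not from the gene's own libraries alone. Named genes are the members, Ogt, paralogues of members (1 of them is not reported here) and, in each role list, every called gene and the 3 genes with the smallest unadjusted p, so that genes were named partly for their values. Igf2 was named after its values were seen. The test was checked on simulated data. There it called 7.46% of 67 genes given a log2 fold change of 0.3. It called 76.1% of 67 genes given 0.5 and 100% of 66 genes given 1. The changed genes all had a mean of at least 100, and every gene was given the same spread setting. Fewer genes were changed there than were called in the data, so these rates need not hold for the real calls. Alternatives were other pseudocounts, filters and scalings, no variance trend, a replicate block and leaving out each library. Tables and figures were made in Python 3.11.15.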

Additional observations from a re-analysis of the deposited data

How the results depend on the processing

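The counts depend on the low-value filter and on every library. The reported counts were 427 genes higher and 633 lower, 1 member higher and 2 lower, and 5 other pathway genes higher and 7 lower. All 6 counts were 0 without the filter, after quantile normalization and without the variance trend. A minimum mean of 10 gave 843 genes higher and 1148 lower, 2 members higher, and 10 other pathway genes higher and 13 lower. The replicate block gave 1007 and 1295 genes, 2 members higher, and 10 and 13 other pathway genes. Same-numbered libraries deviated from their group means with a correlation of 0.013 over 15308 genes. Same-numbered libraries thus showed no shared shift over these genes. Whether they were prepared as pairs is not given in the labels and cannot be told from this value. A pseudocount of 5 and equal library totals each gave 2 members higher; in each of these 4 settings the added member was Igf1r. Equal totals moved the share of calls that were higher to 50.3% from 40.3%.

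Leaving out any 1 library with the filter as it was left 0 calls in each count, with 2484 to 3389 genes at an unadjusted p under 0.05. With a minimum mean of 10 as well, chosen after the data were seen, 91 genes were higher and 166 lower without ctrl 1, 133 and 166 without ctrl 2, 1018 and 1316 without shOGT 1, and 1001 and 1474 without shOGT 2. Members then numbered 0 to 3 higher and 1 to 2 lower, and other pathway genes 1 to 12 higher and 0 to 16 lower. Pik3r1 was the member called without ctrl 1 or ctrl 2. Pik3r1, Irs1, Mtor and Igf1r were called without shOGT 1 or shOGT 2, and Irs2 also without shOGT 1. The cause was not tested.

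Some log2 fold changes near 0 changed sign. Akt1 was 0.0065 at equal totals and 0.0029 after quantile normalization, and Foxo6 was -0.011 after quantile normalization. Leaving out 1 library gave -0.060 to 0.040 for Akt1 (0.025 without ctrl 2), -0.0084 to 0.11 for Pik3r2, -0.027 to 0.078 for Akt2, -0.13 to 0.20 for Foxo6 and -0.10 to 0.0012 for Prkaa2. No called gene named here changed sign under any alternative run. The planned edgeR and DESeq2 fits on recovered reads were not run. With 2 libraries per group, a member that was not called is not shown to be unchanged.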
